A study of Mus musculus with 12 samples.

Results

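Genes whose RNA peaked at the DN4 stage of wild-type mouse thymocytes, between the DN3 and DP stages, numbered 134 of the 18194 genes that the array measured by a probe set with a single gene symbol, a share of 0.737%. They were chosen by the stage differences of the 6 WT arrays. For each gene the brightest probe set was taken first, by its average over the 12 arrays, IkL/L included, and the lower of the 2 WT DN4 arrays had to exceed the highest of the 4 WT DN3 and DP arrays by at least 0.3 on the log2 scale, with a WT DN4 mean of at least 7. That distance is called the margin here, and the same quantity was computed from the IkL/L arrays, which entered the choice through the average that picked the probe set and not through their stages. When the probe sets of each gene were averaged instead, 90 genes passed, of which 76 are members. The WT values of the members are therefore a description, and what was tested is how the same genes ran through the 3 stages in IkL/L cells.

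Thymocytes at the DN3 stage carry neither CD4 nor CD8 and rearrange the T cell receptor beta gene. A functional beta chain pairs with the pre-TCR alpha chain, and the signal from this receptor starts a burst of divisions. DN4 cells are in this burst, and they then gain CD8 and CD4, become DP cells and mostly leave the cell cycle. Genes of DNA synthesis and chromosome segregation are known for high levels in such dividing cells. Ikzf1 encodes Ikaros, which binds DNA in lymphocytes through zinc fingers, and the IkL allele is known as an insertion into Ikzf1 that lowers Ikaros protein without abolishing it.

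The 12 arrays were made from sorted thymus cells of 6 groups with 2 arrays each: IkL/L DN3, IkL/L DN4, IkL/L DP, WT DN3, WT DN4 and WT DP. IkL/L cells carry the allele in both copies, WT cells are the wild type, and no treatment is given in the labels for any group. Sorting started from cells combined from 3 mice. Nothing states that the arrays of a group came from separate pools, so p-values measure the spread between these arrays, which may be technical. The age, strain and sort gates of the mice are not given in the sources used here. In bulk RNA of this kind, fewer cells of a type and less RNA per cell cannot be told apart.

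Signals are RMA values on the log2 scale, on which a step of 1 is a 2-fold difference. Array medians lay between 5.14 and 5.22, and 127 of the 134 members were at or above the median on all 12 arrays. Stage markers were read first, and the mean of the 5 DN3 markers was 10.60 and 10.58 on the IkL/L DN3 arrays and 11.13 and 11.07 on the WT DN3 arrays, and between 8.43 and 8.96 on the 4 DN4 arrays. At DP it was 8.43 and 8.83 in IkL/L cells, about the IkL/L DN4 level, and 7.29 and 7.52 in WT cells. Il2ra, the CD25 chain that DN4 cells have lost, was 5.08 and 5.27 on the IkL/L DN4 arrays and 5.70 and 6.25 on the WT DN4 arrays, and above 10 on every DN3 array. Cd8b1, which begins to appear at the end of the DN stages, was 7.86 and 7.78 in IkL/L DN4 cells and 9.40 and 9.55 in WT DN4 cells. Ikzf1 itself was 11.22 and 11.18 in IkL/L DN4 cells and 11.78 and 11.88 in WT DN4 cells, and it was lower without overlap at the other 2 stages as well. Among all tested genes, 17.2% had both WT DN4 arrays above the other 4 WT arrays.

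Most members stood only a little above their neighbouring stages. The WT margin had a median of 0.39, it was under 0.5 in 109 members, and it reached 1 in 7. Just inside the margin threshold lay Serpinf1 at 0.3002 and Cox8a at 0.3013, and just outside lay Ifi30 at 0.2977 and Fsd1 at 0.2956. On the level threshold, Morn2 with a WT DN4 mean of 7.01 and Pxmp2 with 7.02 were inside, and Sec14l3 with 6.95 and Epha10 with 6.94 were outside. In 123 members the WT DP mean was also below the WT DN3 mean, so the usual course was a modest gain at DN4 followed by a deeper loss at DP. The median WT step was 0.52 between DN4 and DN3 and -1.20 between DP and DN4.

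The largest WT margins belonged to regulators of transcription and to signalling and redox proteins. The promoters of the leading members held in the RefSeq table (build GRCm38.p6, 250 bases before to 50 after the start) are shown because these genes set the upper end of the list. Capitals mark every match on either strand of 12 short motifs, which are spelled out with their shares further on. Maf is named only. The windows are chr16:22439521-22439820 on the minus strand for Etv5, chr2:163202877-163203176 on the plus strand for Tox2, chr11:99040994-99041293 on the plus strand for Igfbp4, chr11:83191080-83191379 on the plus strand for Slfn3 and chrX:155338411-155338710 on the minus strand for Prdx4. Etv5 has 2 listed starts and Tox2 has 5, of which the first is shown.
Etv5: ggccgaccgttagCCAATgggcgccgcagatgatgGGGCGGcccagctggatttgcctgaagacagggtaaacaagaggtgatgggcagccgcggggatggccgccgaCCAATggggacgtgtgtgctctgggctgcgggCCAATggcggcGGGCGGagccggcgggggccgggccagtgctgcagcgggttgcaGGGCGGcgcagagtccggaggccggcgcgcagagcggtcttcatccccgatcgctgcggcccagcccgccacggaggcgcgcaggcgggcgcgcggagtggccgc
Tox2: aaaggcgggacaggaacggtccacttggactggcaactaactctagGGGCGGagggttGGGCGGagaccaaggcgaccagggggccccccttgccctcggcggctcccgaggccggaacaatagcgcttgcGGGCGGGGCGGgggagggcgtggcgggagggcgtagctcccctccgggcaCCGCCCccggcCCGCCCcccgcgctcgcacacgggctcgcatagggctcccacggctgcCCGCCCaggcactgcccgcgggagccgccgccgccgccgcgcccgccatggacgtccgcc
Igfbp4: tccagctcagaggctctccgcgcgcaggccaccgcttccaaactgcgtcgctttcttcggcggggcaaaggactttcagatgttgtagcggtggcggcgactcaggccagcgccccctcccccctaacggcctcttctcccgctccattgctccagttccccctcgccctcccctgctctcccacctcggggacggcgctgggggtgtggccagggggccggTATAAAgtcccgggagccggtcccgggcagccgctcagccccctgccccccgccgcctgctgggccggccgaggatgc
Slfn3: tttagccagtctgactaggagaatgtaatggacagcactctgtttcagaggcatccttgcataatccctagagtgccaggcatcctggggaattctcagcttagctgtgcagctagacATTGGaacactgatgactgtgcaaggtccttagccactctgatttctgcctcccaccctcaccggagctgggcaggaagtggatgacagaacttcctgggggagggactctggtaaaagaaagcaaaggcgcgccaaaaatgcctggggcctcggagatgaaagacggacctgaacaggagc
Prdx4: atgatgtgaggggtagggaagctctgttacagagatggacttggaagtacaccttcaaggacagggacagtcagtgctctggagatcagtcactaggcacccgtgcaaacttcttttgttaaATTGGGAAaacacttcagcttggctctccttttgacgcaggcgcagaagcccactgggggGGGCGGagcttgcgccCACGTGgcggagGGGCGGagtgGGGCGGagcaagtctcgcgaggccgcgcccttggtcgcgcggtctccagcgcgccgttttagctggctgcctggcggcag
The Etv5 window holds 3 CCAAT boxes and 3 GC boxes, and the Tox2 window holds 7 GC boxes. Igfbp4 is the member of these 5 with a TATAAA, which lies 28 bases before the start.

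Etv5, an ETS family transcription factor, had the largest margin of all members, 1.70 in WT cells. Its signal was 7.13 and 5.71 at IkL/L DN3, 7.16 and 6.68 at IkL/L DN4 and 3.45 and 3.73 at IkL/L DP, against 6.16 and 6.33 at WT DN3, 8.03 and 8.26 at WT DN4 and 3.72 and 3.82 at WT DP. In IkL/L cells a single DN3 array reached the DN4 level, so the groups overlapped there, and both IkL/L DN4 arrays lay below both WT DN4 arrays. The fall to DP passed the test in IkL/L cells, with a DP minus DN4 difference of -3.33 (limma, adjusted p = 0.000515). The DN4 minus DN3 difference in IkL/L cells was 0.50 (limma, adjusted p = 0.636). Without IkL/L DN3 replicate 1 the IkL/L margin of Etv5 was 0.97, against -0.46 with it.

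Tox2, an HMG-box transcription factor of the Tox family, lacked a separate DN4 level in IkL/L cells. It read 7.11 and 6.88, then 7.47 and 7.25, then 5.80 and 7.59 at IkL/L DN3, DN4 and DP. In WT cells it read 7.64 and 7.41 at DN3, 9.23 and 9.50 at DN4 and 6.70 and 6.83 at DP. The IkL/L minus WT difference at DN4 was -2.003, the most negative of all members, and neither IkL/L step passed the test (limma, adjusted p = 0.786 and 0.315). IkL/L DP replicate 2 stood above both IkL/L DN4 arrays, and the IkL/L margin was 0.14 without that array and -0.34 with it.

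Maf, a basic leucine zipper transcription factor, kept a peak in both genotypes. It was 7.10 and 6.51 at IkL/L DN3, 8.30 and 9.06 at IkL/L DN4 and 4.76 and 5.51 at IkL/L DP, against 7.63 and 7.50 at WT DN3, 9.08 and 9.41 at WT DN4 and 5.38 and 5.73 at WT DP. No stage overlapped another within a genotype. In IkL/L cells Maf rose by 1.88 at DN4 (SE 0.33, limma, adjusted p = 0.0298) and fell by 3.55 at DP (SE 0.33, limma, adjusted p = 0.000164). Its IkL/L margin of 1.20 was the largest of the 134 members.

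Igfbp4, a secreted binder of insulin-like growth factors, was 8.98 and 8.34 at IkL/L DN3, 9.54 and 9.55 at IkL/L DN4 and 8.35 and 8.66 at IkL/L DP. In WT cells it was 8.65 and 8.88, then 10.09 and 10.43, then 8.54 and 8.25 over the same stages. The peak was present in both genotypes and lower in IkL/L cells without overlap at DN4. It fell by 1.04 at DP in IkL/L cells (limma, adjusted p = 0.00592), and the DN4 minus DN3 difference was 0.88 (limma, adjusted p = 0.0882). Slfn3, a Schlafen family protein, had IkL/L values of 6.23 and 5.64 at DN3, 7.25 and 6.48 at DN4 and 4.33 and 4.41 at DP, against WT values of 5.44 and 5.88, 7.08 and 7.29, and 4.07 and 4.10. Schlafen genes are similar in sequence, and cross-hybridisation between them was not tested. Prdx4, a peroxiredoxin of the endoplasmic reticulum, was above WT at every stage: 9.84 and 9.29, 10.76 and 10.23, and 9.14 and 8.80 in IkL/L cells, against 8.26 and 8.55, 9.66 and 9.79, and 8.22 and 8.03 in WT cells. It peaked at DN4 in both genotypes, with margins of 0.40 in IkL/L and 1.11 in WT cells. In IkL/L cells its DN4 minus DN3 difference was 0.93 (limma, adjusted p = 0.108). Its DP minus DN4 difference there was -1.53 (limma, adjusted p = 0.00171).

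Further members with large WT margins had varied roles. Pdcd1 encodes the inhibitory receptor PD-1. It was 8.22 and 7.49 at IkL/L DN3, 8.08 and 7.95 at IkL/L DN4 and 6.81 and 7.13 at IkL/L DP, against 8.05 and 8.09, 8.89 and 8.89, and 5.66 and 5.91 in WT cells. The IkL/L DN4 arrays lay between the IkL/L DN3 arrays, and IkL/L DP lay above WT DP without overlap. The IkL/L margin of Pdcd1 was -0.28 on all arrays and 0.46 once replicate 1 of IkL/L DN3 was left out. Cyp20a1, a cytochrome P450 family member, had margins of 0.23 in IkL/L and 0.81 in WT cells. Tuba8, an alpha-tubulin isotype, was 6.05 and 5.84 in IkL/L DN4 cells and 7.05 and 7.03 in WT DN4 cells, and Cab39l, a paralog of the scaffold Cab39 of the kinase Stk11, was 7.54 and 7.07 against 7.58 and 7.60.

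**Figure D1:**
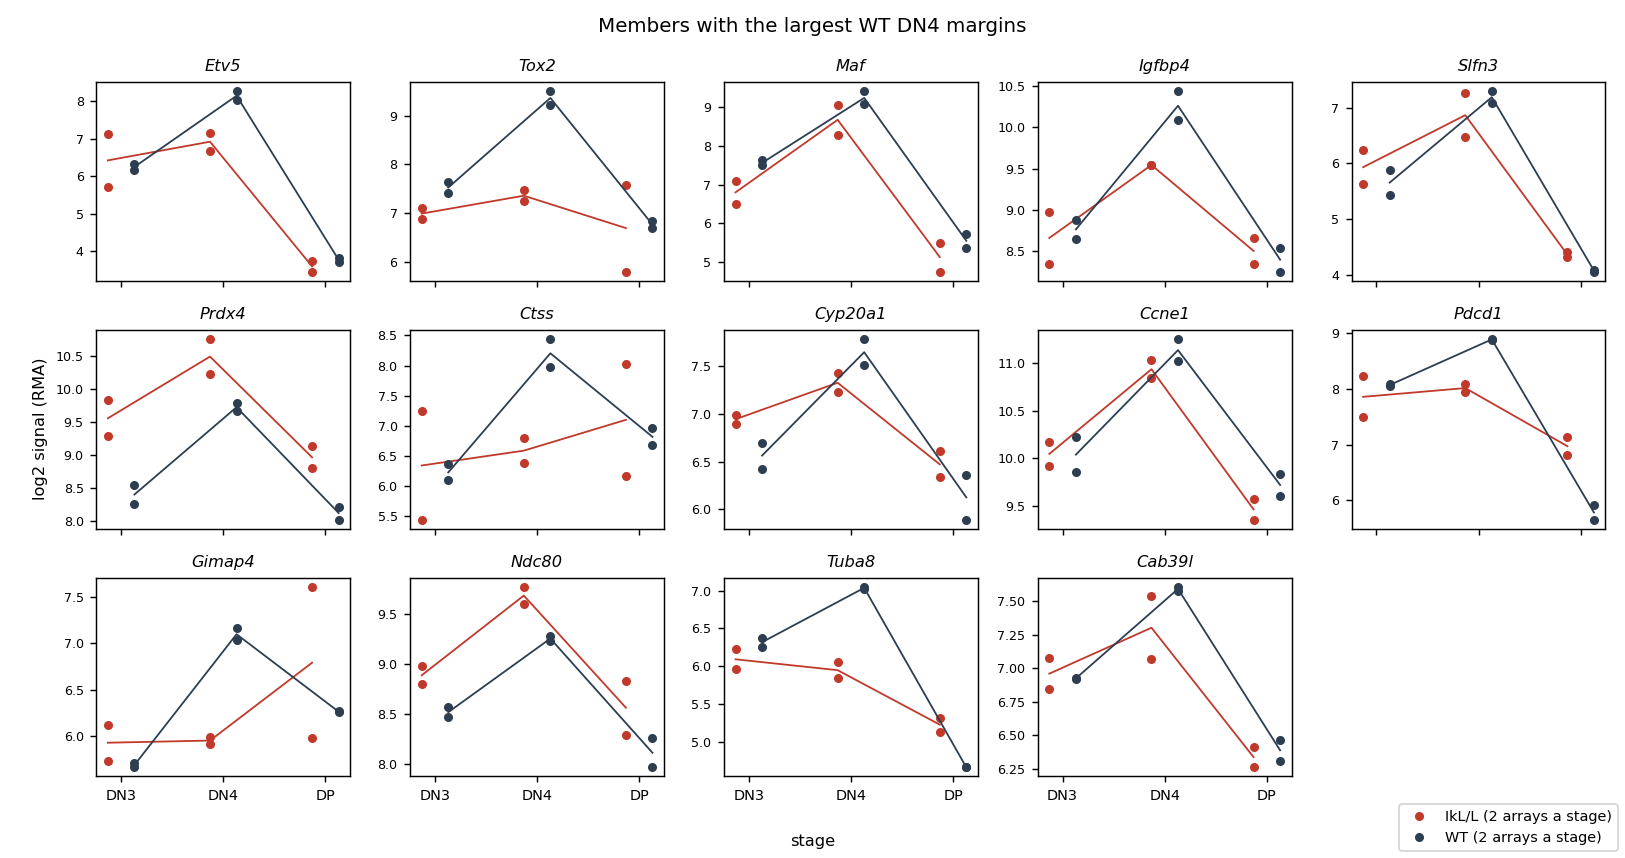
Signal (RMA, log2, own vertical scale in each panel) of the 14 named members with the largest WT margins at DN3, DN4 and DP. Points are single arrays, IkL/L in red left of WT in dark blue, and lines join the group means. Maf, Igfbp4, Prdx4, Ccne1 and Ndc80 peak at DN4 in both genotypes, whereas the Tox2, Ctss, Pdcd1, Gimap4 and Tuba8 arrays of IkL/L DN4 overlap or lie below those of another IkL/L stage.

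The 6 IkL/L arrays, whose stage differences were not used to choose the genes, showed the fall after DN4 far more often than the gain at DN4 at the test's threshold. A limma model was fitted to these arrays over all 11649 tested genes, and calls were made at an adjusted p under 0.05. At DN4 compared with DN3, 11 of 134 members rose, a share of 8.21%, where 0.609% of all tested genes rose. No member fell at DN4, where 2.22% of all tested genes fell. At DP compared with DN4, 102 members fell, or 76.1%, where 24.4% of all tested genes fell. Tesc, which encodes the calcium-binding protein tescalcin, rose at DP, the 1 member to do so, where 18.4% of all tested genes rose. The 11 members that rose at DN4 also fell at DP, among 24 genes with both calls, 0.206% of those tested. Both comparisons use the same 2 IkL/L DN4 arrays.

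The direction was shared by more members than passed the test at DN4. The DN4 minus DN3 difference in IkL/L cells was above 0 in 121 members and in 5774 of the 11649 tested genes, with medians of 0.45 and -0.002. At an unadjusted p under 0.05 there were 73 members higher and 2 lower, and 735 and 1047 of all tested genes. The DP minus DN4 difference was below 0 in 122 members and in 6254 of all tested genes, with medians of -1.03 and -0.04. Counted by arrays, 89 members (66.4%) had both IkL/L DN4 arrays above all 4 IkL/L DN3 and DP arrays, where 12.5% of all tested genes did. The distance reached 0.3 in 50 members (37.3%), where 1.68% of all tested genes reached it. The IkL/L margin had a median of 0.22 among the members and -0.32 among all tested genes. As in WT cells, the DP mean was below the DN3 mean in most members, 118 of the 134.

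**Figure D2:**
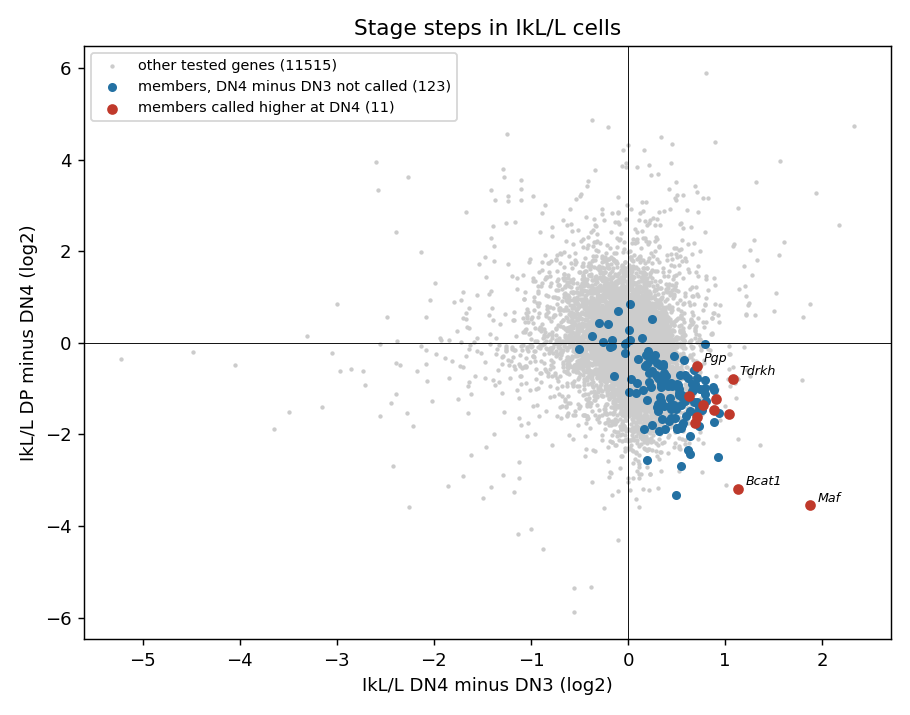
Stage steps in IkL/L cells, DN4 minus DN3 across and DP minus DN4 upward (log2), for each tested gene. The 11 members called higher at DN4 (red, 4 of them named) and the other 123 members (blue) lie mostly in the lower right quadrant, higher at DN4 and lower at DP, and the other 11515 tested genes (grey) spread around 0 on both axes.

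The 11 members that rose at IkL/L DN4 were Bcat1, Tdrkh, Bid, Esco2, Ccne1, Maf, Cdc25c, Pgp, Depdc1b, Spdl1 and the unnamed transcript 2610318N02Rik. Bcat1, the cytosolic aminotransferase of branched-chain amino acids, had the smallest adjusted p of them: 6.35 and 6.22 at IkL/L DN3, 7.55 and 7.30 at IkL/L DN4 and 4.24 and 4.22 at IkL/L DP, against 7.32 and 7.32, 7.92 and 8.15, and 3.97 and 4.28 in WT cells. It rose by 1.14 (SE 0.14, limma, adjusted p = 0.00744) and fell by 3.19 at DP (limma, adjusted p = 1.29e-05). The WT step between DN4 and DN3 was 0.71, and the IkL/L minus WT difference was -1.03 at DN3 and -0.61 at DN4. Bid, a BH3-only protein of the Bcl2 family, was 7.75 and 7.51, 8.55 and 8.53, and 7.33 and 7.28 over the IkL/L stages, against 8.14 and 8.0, 8.57 and 8.57, and 6.93 and 7.19 over the WT stages. The DN4 means of the genotypes differed by -0.03, and the IkL/L gain was 0.91 (limma, adjusted p = 0.015).

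Esco2, an acetyltransferase that establishes sister chromatid cohesion, was 7.79 and 7.52, 8.74 and 8.65, and 7.28 and 7.01 in IkL/L cells, against 7.55 and 7.53, 8.27 and 7.93, and 7.44 and 6.51 in WT cells. It rose by 1.04 at IkL/L DN4 (limma, adjusted p = 0.016), and both IkL/L DN4 arrays were above both WT DN4 arrays. Tdrkh, a Tudor and KH domain protein, rose by 1.08 (limma, adjusted p = 0.0126). Cdc25c, a phosphatase that activates the mitotic kinase Cdk1, rose by 0.69, and Spdl1, which brings dynein to kinetochores, rose by 0.63 (limma, adjusted p = 0.0374 and 0.0475). Pgp, phosphoglycolate phosphatase, rose by 0.71 and Depdc1b, a DEP domain protein, by 0.78 (limma, adjusted p = 0.038 and 0.0385). All 11 calls were lost when either array of IkL/L DN4 was left out, with 0 members called in each case, and 22 were called without IkL/L DN3 replicate 1. Over the 6 fits with an array left out, Bcat1, Bid, Esco2 and Tdrkh stayed called in 4, and 2610318N02Rik and Spdl1 in 0.

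Sorted by what the proteins are known to do, 43 of the members work in cell division. These role groups, and the examples named from them, were chosen after the values had been seen, and their counts are a description. Most members of cell division had both IkL/L DN4 arrays above the other IkL/L arrays. Of the 43, 41 had an IkL/L margin above 0, where 12.5% of all tested genes did, and 26 reached 0.3, where 1.68% did. By the test 40 fell at DP, where 24.4% of all tested genes did, while 4 rose at DN4, where 0.609% did. The median IkL/L margin of the 43 was 0.43. The same shares of all tested genes apply to the counts by role below. Of the other 91 members, 48 had an IkL/L margin above 0, 24 reached 0.3, 62 fell at DP and 7 rose at DN4, and the median margin was 0.03.

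The 12 members of the kinetochore and centromere, the structures that join chromosomes to spindle fibres, all had an IkL/L margin above 0, and all 12 fell at IkL/L DP. Ndc80, the microtubule-binding subunit of the outer kinetochore, was 8.98 and 8.79, 9.77 and 9.60, and 8.83 and 8.29 in IkL/L cells, against 8.46 and 8.57, 9.23 and 9.28, and 8.26 and 7.96 in WT cells. The IkL/L arrays were above the WT arrays of the same stage throughout, and the margins were 0.62 in IkL/L and 0.66 in WT cells. Its DN4 minus DN3 difference in IkL/L cells was 0.80 (limma, adjusted p = 0.0858). Cenpa, the centromeric histone H3 variant, was 10.87 and 10.69 at IkL/L DN4 and 10.50 and 10.50 at WT DN4, with IkL/L DN3 at 10.17 and 10.01 and WT DN3 at 9.77 and 10.06. Ska1, Cenpw, Cenph, Cenpp, Cenpl, Knl1, Spc24, Sgo1, Sgo2a and Spdl1 complete the group, with IkL/L margins from 0.15 to 0.56.

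The 14 members of the spindle, of mitotic regulation and of chromosome structure likewise had an IkL/L margin above 0 throughout and fell at IkL/L DP throughout. Kif11, the motor that pushes spindle poles apart, was 9.53 and 9.13, 10.13 and 10.05, and 8.82 and 8.43 in IkL/L cells, against 9.08 and 9.24, 9.61 and 9.60, and 8.22 and 8.02 in WT cells. Ttk, the kinase of the spindle checkpoint, was 9.20 and 8.70 at IkL/L DN4 and 8.68 and 8.53 at WT DN4. Birc5, known as survivin and part of the chromosomal passenger complex, was 11.18 and 10.87 against 11.07 and 10.97, and its DN4 arrays overlapped between the genotypes. Fbxo5, an inhibitor of the anaphase-promoting complex, was 11.77 and 11.85 against 11.41 and 11.45. The group's IkL/L minus WT difference at DN4 had a median of 0.33, with 11 members above WT without overlap, where 32% of all tested genes were, and 1, Cep76, below, where 28.6% were. Over all 43 cell division members 29 lay above and 3 below without overlap. After a second quantile normalization 23 lay above and 9 below, where 2265 and 5005 of the 11649 tested genes did.

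Of the 17 members of S phase, DNA replication and repair, 15 had an IkL/L margin above 0, and 14 fell at IkL/L DP. Ccne1 is cyclin E1, which drives entry into S phase with Cdk2. It was 9.92 and 10.17, 10.84 and 11.03, and 9.57 and 9.36 in IkL/L cells, against 9.86 and 10.22, 11.02 and 11.25, and 9.84 and 9.61 in WT cells, and it rose by 0.89 at IkL/L DN4 (SE 0.15, limma, adjusted p = 0.0275). E2f8, an atypical E2F that represses E2F targets late in S phase, was 10.65 and 10.64, 11.42 and 11.45, and 10.69 and 10.19 in IkL/L cells, against 10.19 and 10.36, 11.09 and 10.89, and 10.18 and 10.04 in WT cells. Its IkL/L gain at DN4 was 0.79 (limma, adjusted p = 0.0642). The origin licensing factors Cdc6 and Orc6, the helicase subunit Gins1 and the replication checkpoint mediator Clspn had IkL/L margins of 0.54, 0.49, 0.44 and 0.62. The 2 exceptions were E2f5 at -0.86 and Samhd1, a dNTP hydrolase, at -0.39.

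The promoters of Ccne1 (chr7:38107441-38107740, minus strand) and Ndc80 (chr17:71526808-71527107, minus strand) are shown as those of the cell division members with the largest WT margins, in the same table, build and marking as above.
Ccne1: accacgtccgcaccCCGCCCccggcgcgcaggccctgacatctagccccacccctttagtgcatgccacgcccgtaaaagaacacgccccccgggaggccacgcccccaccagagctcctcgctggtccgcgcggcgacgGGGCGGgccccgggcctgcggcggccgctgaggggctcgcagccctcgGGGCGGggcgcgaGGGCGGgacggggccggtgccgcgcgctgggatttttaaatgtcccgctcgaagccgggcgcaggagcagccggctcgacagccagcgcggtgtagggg
Ndc80: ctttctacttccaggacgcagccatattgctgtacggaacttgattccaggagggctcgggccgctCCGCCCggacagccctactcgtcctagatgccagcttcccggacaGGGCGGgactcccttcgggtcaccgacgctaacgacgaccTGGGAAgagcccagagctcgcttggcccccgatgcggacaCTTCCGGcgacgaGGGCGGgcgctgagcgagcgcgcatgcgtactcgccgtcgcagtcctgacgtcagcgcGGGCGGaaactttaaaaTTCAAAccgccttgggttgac
Ccne1 holds 4 GC boxes. Ndc80 holds 4 GC boxes and a TGGGAA on the same strand, at -99 from the start. It also holds a CCGGAAG on the other strand 59 bases before the start, and a TTTGAA on the other strand within the first 50 bases after it.

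The wider pathways around these members passed the test mainly at the second step. Of all tested genes, 0.609% rose and 2.22% fell at IkL/L DN4, and 24.4% fell and 18.4% rose at DP. An IkL/L margin above 0 was found in 12.5% of them and a WT margin above 0 in 17.2%. The WT margin also chose the members within these lists. Of 25 tested mitosis genes, which include Ndc80, Cenpa, Birc5, Kif11 and Ttk, 0 rose and 0 fell at IkL/L DN4, and 25 fell at DP, while 24 had an IkL/L margin above 0 and 17 a WT margin above 0. Aurkb, the kinase of the passenger complex, and Plk1, a kinase of mitotic entry, are not members. Their IkL/L DP minus DN4 differences were -2.22 and -1.66, and their WT margins of 0.27 and 0.15 missed the rule. Of 32 tested DNA replication genes, with Gins1, Cdc6, Mcm10 and Tk1 among the members, 0 were called at IkL/L DN4 and 32 fell at DP. Over these 32 genes the median IkL/L DN4 minus DN3 difference was 0.33, and 25 had an IkL/L margin above 0 and 16 a WT margin above 0. Of 21 tested genes of G1 and S phase entry, 4 rose and 1 fell at IkL/L DN4, and 15 fell and 1 rose at DP. The 4 that rose were Ccne1, Ccne2, Cdk2 and Cdkn2c. Cdk2, the kinase of cyclin E1, gained 1.03 (limma, adjusted p = 0.0234). Of the cell cycle inhibitors, Cdkn2c rose by 0.74 (limma, adjusted p = 0.0475) and Cdkn1a fell by 1.05 (limma, adjusted p = 0.0196). The list of 23 ribosome biogenesis genes holds no member, although Nsa2 and Rsl1d1 of the same process are members. All 23 fell at IkL/L DP and 0 were called at DN4, and 1 had a WT margin above 0.

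Members with immune, signalling and transcription roles mostly had no separate DN4 level in IkL/L cells. Among these 17, which include Etv5, Tox2, Maf, Igfbp4, Slfn3, Pdcd1, Ctss, Gimap4 and Cd74, 5 had an IkL/L margin above 0. Their median margin was -0.34 in IkL/L cells and 0.52 in WT cells, where it chose them. In this group 1, Maf, rose at IkL/L DN4, and 8 fell at DP. The rule asked for high WT DN4 arrays, which favours IkL/L values below WT at DN4, and all tested genes carry no such choice. At DN4, 13 of the 17 lay below WT without overlap, where 28.6% of all tested genes did, and 0 above, where 32% did. Their median IkL/L minus WT difference was -0.72. Among the exceptions was Bmp7, a secreted ligand of the BMP family, which was 8.54 and 8.12 at IkL/L DN4 and 7.75 and 8.21 at WT DN4, and 7.51 and 7.15 at IkL/L DP and 5.70 and 6.26 at WT DP. Mxd3, a Max partner of the Myc network, peaked in both, with margins of 0.49 in IkL/L and 0.43 in WT cells.

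Gimap4, a GTPase of lymphocytes, and Ctss, the lysosomal protease cathepsin S, had the smallest IkL/L margins. Gimap4 was 6.12 and 5.74 at IkL/L DN3, 5.91 and 5.99 at IkL/L DN4 and 5.98 and 7.60 at IkL/L DP, against 5.66 and 5.71, 7.03 and 7.16, and 6.27 and 6.26 in WT cells. Ctss was 7.24 and 5.44, 6.80 and 6.37, and 6.17 and 8.03 in IkL/L cells, against 6.09 and 6.36, 7.97 and 8.44, and 6.96 and 6.67 in WT cells. In both genes IkL/L DP replicate 2 was the highest IkL/L array. Without it the margins were -0.21 for Gimap4, against -1.69 with it, and -0.86 for Ctss, against -1.66.

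Markers of other cells moved beside these genes. On IkL/L DP replicate 2 the gamma-delta T cell marker Cd163l1 was 9.36, against 5.56 on replicate 1, and the mean of the 3 gamma-delta markers used, of 5 chosen, was 7.20 against 5.70. Sox13 and Blk, also in this mean, differed less, at 5.92 against 5.55 and 6.33 against 5.97. At DN4 the gamma-delta mean was 7.60 and 8.09 in IkL/L cells and 8.62 and 8.92 in WT cells, and at WT DN3 it was 8.33 and 8.21. The mean of the 4 mature alpha-beta T cell markers used, of 5 chosen, was 4.95 and 4.99 at IkL/L DN4 and 5.42 and 5.86 at WT DN4, with Foxp3 between 3.75 and 3.97 on the WT DN3 and DN4 arrays. On IkL/L DP replicate 2 the mature alpha-beta mean was also higher, at 5.44 against 4.77 on replicate 1. Some myeloid and erythroid genes stood apart on replicate 1 of IkL/L DN3 and DN4, arrays that both enter the tested steps. S100a8 was 8.96 and 5.33 on replicates 1 and 2 of IkL/L DN3 and 7.09 and 4.49 on those of IkL/L DN4, and Alas2, of heme synthesis, was 8.80 and 5.65, and 8.64 and 5.85. The myeloid marker Csf1r, at 6.003 and 5.996 in IkL/L DN3 cells, and the erythroid marker Hba-a1, at 4.02 and 4.13, did not show this. The mean of the 5 myeloid markers was 6.92 and 5.34 at IkL/L DN3, 5.59 and 4.63 at IkL/L DN4, and between 4.91 and 5.13 on the WT DN3 and DN4 arrays. The part of these cells in the members' values was not tested. Etv5 and Maf belong to the gamma-delta list themselves, of which all 7 tested genes had a WT margin above 0 and 2, Maf and Blk, an IkL/L margin above 0. Of all tested genes, 17.2% had a WT margin above 0 and 12.5% an IkL/L margin above 0. Sox13, a transcription factor of gamma-delta T cells, was 7.34 and 7.31 at IkL/L DN4 and 8.15 and 8.63 at WT DN4.

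Cd74, the invariant chain of MHC class II, was 6.995 and 6.68 at IkL/L DN3, 6.38 and 6.29 at IkL/L DN4 and 5.88 and 6.49 at IkL/L DP, against 6.04 and 5.94, 7.21 and 6.94, and 6.42 and 6.13 in WT cells. It is a member through a WT gain, and in IkL/L cells both DN4 arrays lay below both DN3 arrays. The mean of the 4 dendritic cell markers was 6.52 and 6.78 at IkL/L DN3 and 6.20 and 6.40 at IkL/L DN4. It was 5.71 and 5.93 at WT DN3, and 6.16 and 6.32 at WT DN4. The MHC class II genes H2-Aa and H2-Ab1 in this mean were above WT at DN3 without overlap. H2-Aa was 7.57 and 8.27 at IkL/L DN3 and 5.81 and 6.15 at WT DN3. The other markers, Itgax and Siglech, overlapped between the genotypes at DN3. The part of dendritic cells in the Cd74 values was not tested. Tesc was 8.16 and 7.80, 8.03 and 7.71, and 8.40 and 8.72 in IkL/L cells, against 7.50 and 7.71, 8.02 and 8.30, and 7.003 and 6.91 in WT cells. Its rise of 0.69 at IkL/L DP (limma, adjusted p = 0.0206) was lost when replicate 2 of either IkL/L DN4 or IkL/L DP was left out.

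**Figure D3:**
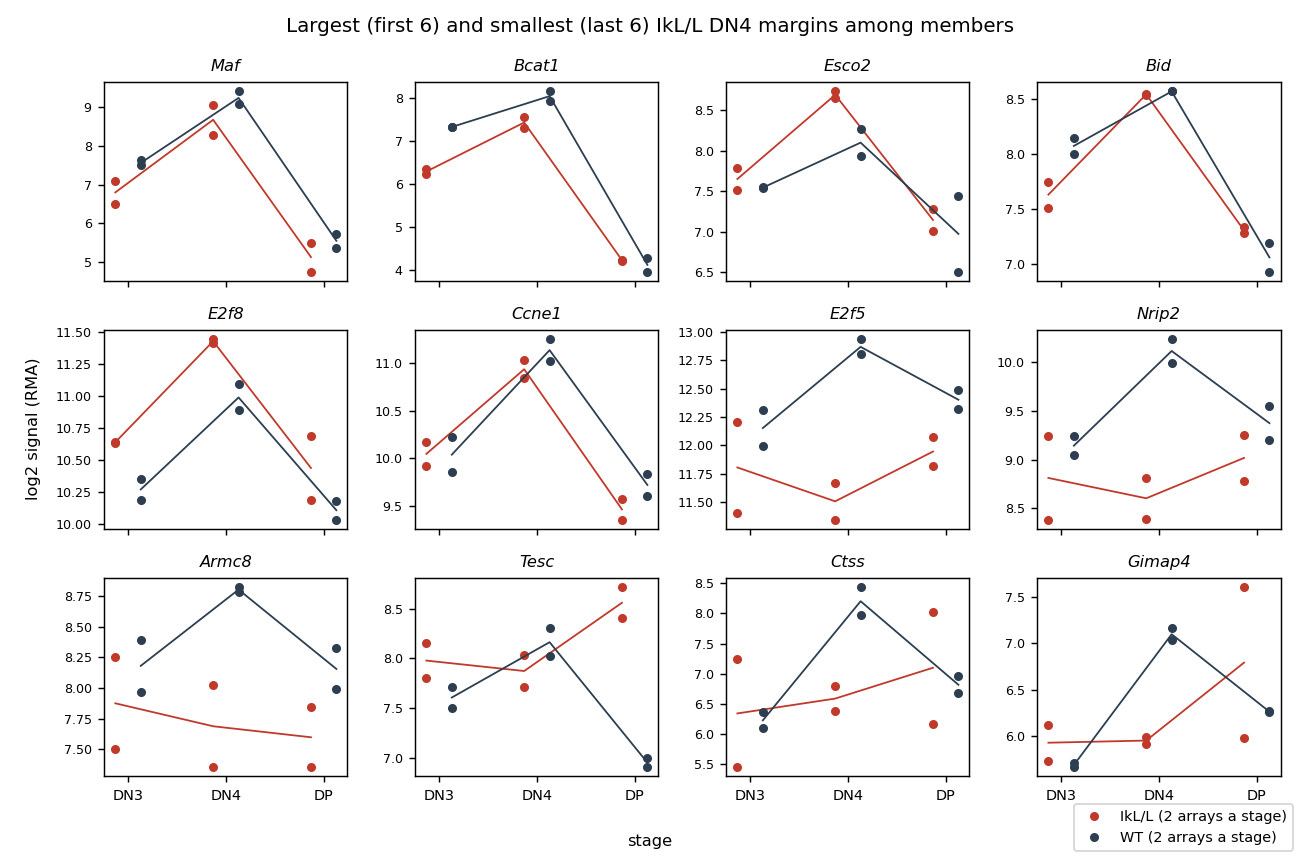
Signal (RMA, log2, own vertical scale in each panel) of the 6 members with the largest IkL/L margins (Maf, Bcat1, Esco2, Bid, E2f8, Ccne1) and the 6 with the smallest (E2f5, Nrip2, Armc8, Tesc, Ctss, Gimap4). Points are single arrays, IkL/L in red left of WT in dark blue, and lines join group means. In the first 6 both IkL/L DN4 arrays exceed every other IkL/L array, by 0.67 to 1.20, and in the last 6 the lower IkL/L DN4 array lies below the highest of the others, with margins between -1.69 and -0.86.

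The remaining role groups fell between these extremes. The 10 mitochondrial members, among them the respiratory chain subunits Uqcr10 and Cox8a and the ribosomal proteins Mrps22 and Mrpl9, had IkL/L margins from -0.08 to 0.17, with 6 above 0 and 0 at 0.3. Of these, 7 fell at IkL/L DP and 0 rose at DN4. Uqcr10 was 8.69 and 8.74, 9.15 and 8.86, and 8.32 and 8.28 in IkL/L cells, against 8.71 and 8.79, 9.13 and 9.17, and 8.24 and 8.11 in WT cells. The 11 members of RNA, ribosome and protein synthesis had a median IkL/L margin of 0.04, with 8 above 0, and 7 fell at IkL/L DP. Snhg4, a small nucleolar RNA host gene, was 8.80 and 8.65, 9.27 and 9.27, and 6.45 and 6.70 in IkL/L cells, against 8.76 and 8.87, 9.30 and 9.24, and 6.58 and 6.18 in WT cells, with the same course in both.

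Among 10 metabolic enzymes and transporters, 6 had an IkL/L margin above 0, 2 rose at IkL/L DN4 and 8 fell at DP. Psph, which makes serine from phosphoserine, was 9.64 and 9.32 at IkL/L DN4 and 9.44 and 9.48 at WT DN4. Slc39a8, a zinc transporter, was 8.73 and 8.27, 8.88 and 8.62, and 7.01 and 6.88 in IkL/L cells, against 7.40 and 7.41, 7.82 and 7.89, and 6.14 and 6.37 in WT cells, so that it stood above WT at every stage but had no separate DN4 level in IkL/L cells. The 43 members put in no group, among them 8 unnamed transcripts, had a median IkL/L margin of 0.12, with 23 above 0, and 4 rose at IkL/L DN4 while 32 fell at DP. Nrip2, a nuclear receptor interacting protein, was 8.81 and 8.39 at IkL/L DN4 and 10.23 and 9.99 at WT DN4, and its other IkL/L arrays ran from 8.38 to 9.25.

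**Figure D4:**
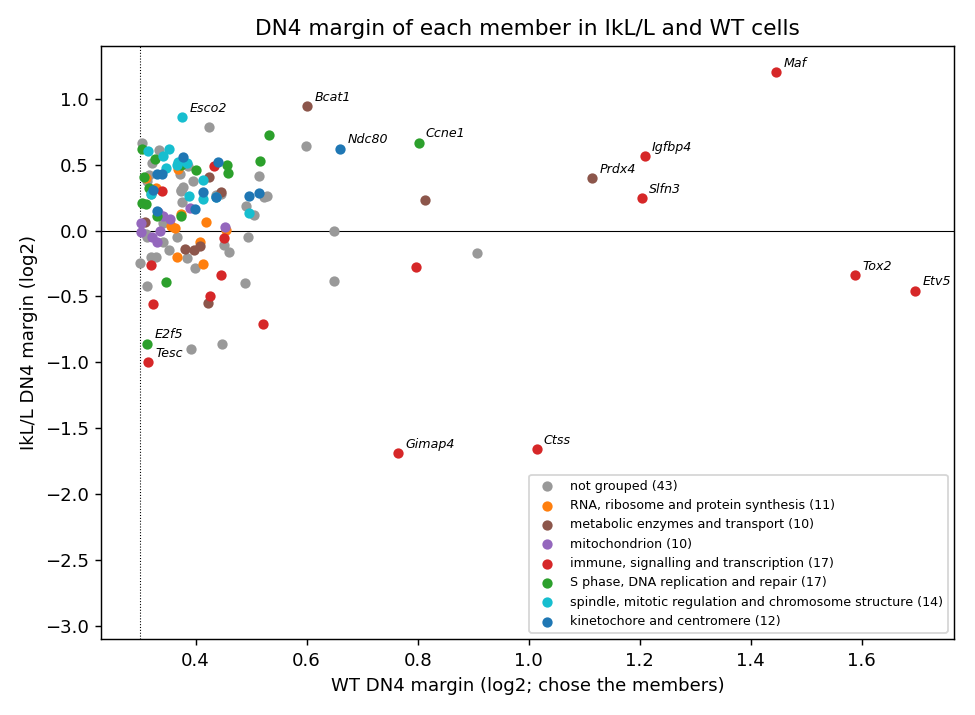
IkL/L margin (upward) against WT margin (across) of the 134 members, both in log2, coloured by role group with the number of members in each. The dotted line marks the WT threshold of 0.3, which every member passes by choice. Cell division members (blue, cyan, green) lie mostly above 0 on the IkL/L axis, and Gimap4 and Ctss lie lowest, at -1.69 and -1.66.

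Across the 134 members, Pearson's r between the IkL/L and WT margins was -0.08 and Spearman's rho was -0.0075. These are given as a description over genes measured on the same arrays, and genes are not independent replicates. The narrow range of most WT margins, set by the rule, limits both. Median differences between the 2 arrays of a group were 0.18 for members at IkL/L DN4 and 0.10 at WT DN4, of the same order as many of the margins. Over all tested genes they were 0.14 and 0.15. The rule used the lower WT DN4 array, which favours genes whose WT DN4 arrays lie close.

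Set against WT at the same stage, the members as a whole shifted little at DN4 and upward at DP. The WT arrays chose the members, so these differences, and those by role below, are a description. The rule asked for WT arrays that are high at DN4 relative to DN3 and DP. That favours differences below WT at DN4 and above WT at DN3 and DP, and all tested genes carry no such choice. The median IkL/L minus WT difference was 0.10 at DN3, -0.0009 at DN4 and 0.22 at DP, and over all tested genes it was -0.04, -0.002 and 0.03. At DN3, 41 members lay above WT with no overlap between the arrays, where 19.7% of all tested genes did, and 11 below, where 26.7% did. At DN4, 46 lay above, where 32% of all tested genes did, and 40 below, where 28.6% did. At DP, 66 lay above, where 26% did, and 8 below, where 18% did. A second quantile normalization turned the DN4 split to 35 above and 62 below. Under it 2265 of the 11649 tested genes lay above and 5005 below. It moved the median of all tested genes at DN4 to -0.11 from -0.002.

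By role, the DN4 differences parted. The cell division members had a median IkL/L minus WT difference of 0.22 at DN4, positive in 35 of 43, and the other 91 had a median of -0.13, positive in 31. After the second quantile normalization the cell division median was 0.10, and that of the immune, signalling and transcription group was -0.81, against -0.72 without it. The most negative DN4 differences were those of Tox2 at -2.003, Ctss at -1.62, Nrip2 at -1.51 and E2f5 at -1.36. Sapcd1, a protein of unsettled role, and Lgalsl, a galectin-like protein, lay furthest on the other side, at 1.18 and 1.10. The other probe sets of Nrip2 and E2f5 did not reach a WT margin of 0.3, as given further on.

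**Figure D5:**
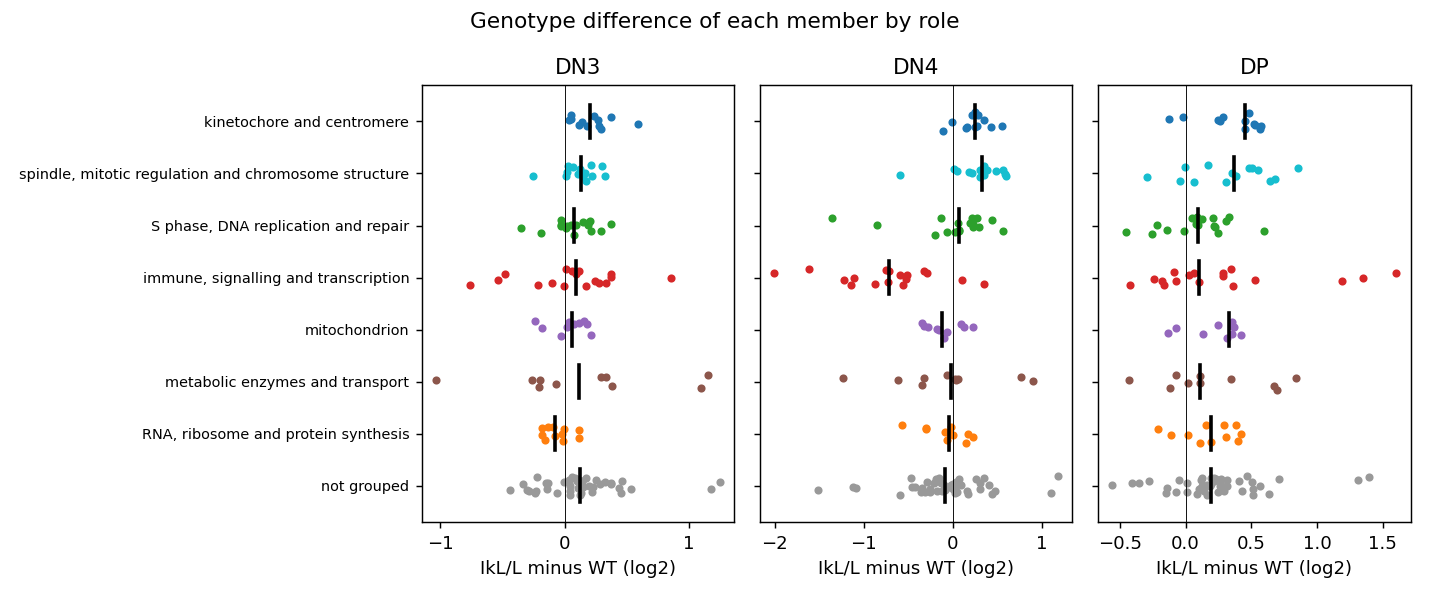
IkL/L minus WT difference (log2) of each member at DN3, DN4 and DP, by role group. Points are members and black bars are group medians. At DN4 the median of the immune, signalling and transcription group is -0.72 and that of kinetochore and centromere is 0.25, and at DP the medians of all groups lie above 0.

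The brightest probe set stood for each gene, and 80 members had others. Of the 149 other probe sets, 89 had a mean signal over all arrays at or above the average of the array medians. These 89 are called bright here and belong to 61 genes. A WT margin above 0 was found in 60 of the 89, of which 27 reached 0.3. For Ccne1 and Prdx4 a second bright probe set gave WT margins of 0.52 and 0.79, and IkL/L margins of 0.79 and 0.37. For Igfbp4, 5 other bright probe sets gave WT margins from 0.22 to 1.44. The other bright probe sets of E2f5 gave WT margins of -0.27 and -0.38, those of Ptprk, a receptor tyrosine phosphatase, -0.91 and -0.94, and that of Srr, serine racemase, -0.77. All 4 of Armc8, a subunit of the CTLH ubiquitin ligase, were negative, from -1.26 to -0.31. The DN4 peak of E2f5, Ptprk, Srr and Armc8 thus rests on a single probe set each. For Nrip2 the other bright probe sets gave WT margins of 0.08 and -0.24, both under 0.3. These genes are examples, and other members also had bright probe sets with a negative WT margin.

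Sequence features were counted in the promoters of 113 members, with 132 starts, against all 32851 windows of the table, which also holds non-coding genes. The letters were searched on both strands. GGGCGG, the GC box, occurred in 67.4% of member windows and 35.7% of all windows, and CCAAT, the NF-Y box, in 47.7% and 37.4%. TTCCCGC, an E2F core, occurred in 15.9% and 4.6%, and CCGGAAG, an ETS core, in 22.7% and 8.86%. TGGGAA, the core that Ikaros is known to bind, occurred in 16.7% of member windows and 25.6% of all windows. In the 37 windows of cell division members, TTTGAA, the cell cycle homology region, occurred in 43.2%, against 21.2% of member windows and 17.9% of all windows. There CCGGAAG occurred in 43.2%, CCAAT in 64.9% and TTCCCGC in 24.3%. In the 19 windows of the immune, signalling and transcription members TTTGAA and CCGGAAG occurred in 0%, and TATAAA occurred in 21.1%, against 2.7% of the cell division windows and 13.6% of all windows.

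The other motifs differed less or were rare. CACGTG, an E-box bound by Myc and Max, was in 9.85% of member windows and 7.15% of all, TGTGGT, a RUNX core, in 15.9% and 16.8%, CTTTGA, a TCF and LEF core, in 12.9% and 16%, GGTGTGA, a T-box core, in 1.52% and 3.98%, and AAGGTCA, an NR4A core, in 2.27% and 4.72%. TATAAA was in 8.33% of member windows. Motifs can overlap each other, as CCAAT on the other strand and TGGGAA do in the Prdx4 window. A match is a run of letters and was not tested as a site, and CpG-rich and non-coding windows were not treated apart.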

How the data were processed

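Affymetrix arrays measured the RNA of 12 samples of sorted thymus cells after a two-cycle labelling, per the labels' protocols, which name labelling series without assigning samples to them. The deposited log2 signals were made by the authors with RMA, per the submitters' processing notes (version not given in the sources used here). The scale was checked on the values, which ran from 2.68 to 14.7. Array signal has no read depth, and precision is limited by the number of arrays.

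Of 45099 probe sets, 34958 carried 1 symbol in the platform table, 932 several and 9209 none. For 34754 of those with 1 symbol the RefSeq table held the gene ID, and it changed 0 symbols. The brightest probe set by its mean over the 12 arrays stood for each of 18194 genes. The 11649 genes at or above the array median on at least 2 arrays were tested, and all 134 members are among them.

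For the IkL/L steps, limma 3.58.1 (R 4.3.3) was run on the 6 IkL/L arrays alone (3 residual and 4.67 prior degrees of freedom), with Benjamini-Hochberg adjustment over all tested genes at 0.05, and the fit was tested on simulated data. The members, gene lists and tests were chosen with earlier results of these data known, and the role groups after the values were seen. The text names members by the largest WT margins, the largest and smallest IkL/L margins, the gene lists, the thresholds and the markers. Alternatives covered probe set choice, scaling, filter, thresholds, arrays fitted, a replicate block and left-out arrays.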

Additional observations from a re-analysis of the deposited data

Results flagged for a closer look

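In 7 of the 134 members every IkL/L array moved against the direction of WT cells at a step, with no overlap between the stages in either genotype. The rule itself set the WT direction and separation. The share of all tested genes with such an IkL/L step was not counted, so the 7 cannot be called many or few. These differences between genotypes were not tested, since the WT values chose the members. At DN4 minus DN3, Cd74, the MHC class II invariant chain, was -0.51 in IkL/L and 1.09 in WT cells, and Oxt, the oxytocin precursor gene, was -0.37 in IkL/L and 0.55 in WT cells. The unnamed transcript 1810064F22Rik was -0.26 in IkL/L and 0.65 in WT cells, and Diras1, a small GTPase, was -0.16 in IkL/L and 0.34 in WT cells.

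At DP minus DN4, Tesc was 0.69 in IkL/L and -1.21 in WT cells, E2f5 was 0.44 in IkL/L and -0.47 in WT cells, Ptprk was 0.29 in IkL/L and -0.58 in WT cells, and Oxt was 0.15 in IkL/L and -0.50 in WT cells. Of these values, the rise of Tesc in IkL/L cells passed the limma test.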

How the results depend on the processing

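The rule chose 134 genes. It chose 283 after a second quantile normalization (132 of them shared), 254 with a margin of 0.2, 25 with a margin of 0.5, and between 137 and 349 with a WT array left out (324 without WT DN3 replicate 2, 349 without WT DN4 replicate 1, 217 without WT DN4 replicate 2). The 11 members that rose at IkL/L DN4 became 6 after the second quantile normalization, 32 when all 12 arrays were fitted, 4 with a minimum log2 difference of 1, and between 0 and 22 with an IkL/L array left out (0 without either DN4 array, 22 without DN3 replicate 1, 7 without each of the other 3). Those with both calls, also 11, became 6, 32, 3 and between 0 and 20 in the same order. The 102 members that fell at IkL/L DP numbered 70 to 109 under every alternative run. The 89 members with an IkL/L margin above 0 became 50 at a margin of 0.3 and 89 to 111 with an array left out. Leaving an array out can raise a margin or leave it equal and cannot lower it. These left-out counts, and those of the rule, therefore could not fall through the margin and do not test whether it holds.

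With the replicate number as a block, 31 members rose at IkL/L DN4 and 31 had both calls, all 11 among them. The deviations of same-numbered IkL/L arrays correlated at 0.494 for DN3 and DN4, 0.0864 for DN3 and DP and 0.0149 for DN4 and DP, and those of WT arrays at 0.317, 0.147 and 0.271. Since 2 of the IkL/L values are under 0.1, the numbers were not taken as pairs, although the value for DN3 and DN4 is the highest. For 39 named genes, 78 step values were refitted, giving 1154 alternative values: 1088 kept their side of the threshold, 37 of them uncalled values that turned sign, 35 lost a call, 31 gained one and 0 called values reversed. The causes were not tested.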

Other observations

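Some members differed in level between the genotypes at all 3 stages and peaked at DN4 in both, and those given here were picked after their values were seen. Sapcd1 was 7.97 and 7.94, 8.57 and 8.29, and 7.32 and 6.83 at IkL/L DN3, DN4 and DP, against 6.76 and 6.78, 7.16 and 7.34, and 5.84 and 5.68 at the WT stages. Lgalsl was 7.94 and 8.04, 8.57 and 8.41, and 7.48 and 7.70 in IkL/L cells, against 6.56 and 6.92, 7.32 and 7.47, and 6.16 and 6.23 in WT cells. In both genes every IkL/L array stood above the WT arrays of its stage. Their IkL/L minus WT differences lay between 1.10 and 1.39, and their IkL/L margins were 0.33 and 0.37, against WT margins of 0.38 and 0.39. Shcbp1, a protein that binds the adaptor Shc, was 11.23 and 11.20 at IkL/L DN4 and 10.72 and 10.77 at WT DN4, with differences of 0.53, 0.47 and 0.52 at DN3, DN4 and DP.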
